A study of Mus musculus with 9 samples.

Results

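The guanylate-binding proteins (GBPs) described here are the 8 mouse genes Gbp2, Gbp3, Gbp4, Gbp5, Gbp6, Gbp7, Gbp8 and Gbp9, taken by their symbols from a count table of 16200 genes. All 8 were in the table and all 8 passed the filter on low counts, which kept 12587 genes. Expression was measured by polyA RNA sequencing of bone marrow-derived macrophages from wild-type (WT) mice, which had been grown for 6 days in medium with 10% supernatant of L929 cells, a fibroblast line that secretes macrophage growth factor. The 9 libraries were 3 of untreated cells (labelled NC and non), 3 of cells exposed for 12 h to 20 ng/ml of IL-4 (interleukin-4) and 3 of cells exposed for 6 h to 100 ng/ml of IL-27 (interleukin-27). Doses and times come from a text that every sample shares, which leaves out whether IL-4 was also added to the IL-27 cells and how long the untreated cells were kept beside them. The labels give no age or sex of the mice. The series' design text calls the 3 libraries of a group replicate experiments without saying whether animals or cultures differed, so the tests below capture the spread among these libraries alone, and that spread may be technical.

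GBPs are large GTPases of cell-autonomous immunity. Interferons switch their genes on through STAT factors and interferon regulatory factors (IRFs), and the proteins gather on the membranes of bacteria and of the vacuoles in which parasites live, where they help to break these open and to expose microbial products to inflammasomes. Some members, Gbp2 and Gbp5 among them, carry a C-terminal signal for a lipid (prenyl) anchor. IL-27 signals through Il27ra and the shared chain Il6st, whereas IL-4 signals mainly to STAT6. In the mouse the genes lie in 2 clusters, one on chromosome 3 (Gbp5, Gbp7, Gbp3, Gbp2b and Gbp2, in that order) and one on chromosome 5 (Gbp8, Gbp9, Gbp4, Gbp10, Gbp6 and Gbp11), by the RefSeq annotation of GRCm38.p6. The deposited values were made on GRCm39, per the submitters' processing notes, so no coordinates of genes are given. The NCBI gene identifiers beside the symbols in the deposited table were 14469 (Gbp2), 55932 (Gbp3), 17472 (Gbp4), 229898 (Gbp5), 100702 (Gbp6), 229900 (Gbp7), 76074 (Gbp8) and 236573 (Gbp9).

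The upstream sequences of the 4 chromosome 3 members are shown, since promoter windows were available for these members only. They hold matches to the element through which interferons act on this family. They are the 170 bases before the annotated start, from RefSeq on GRCm38.p6, plus strand, 5′ to 3′. Capitals mark matches to GAAANNGAA, the core of an interferon response element (read here on the other strand, as TTCNNTTTC), and to TTCNNNGAA, the STAT site.
Gbp2 (chr3:142620493-142620662): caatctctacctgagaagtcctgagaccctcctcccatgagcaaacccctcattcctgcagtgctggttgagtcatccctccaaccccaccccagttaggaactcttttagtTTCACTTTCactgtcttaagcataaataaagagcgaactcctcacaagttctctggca
Gbp3 (chr3:142559874-142560043): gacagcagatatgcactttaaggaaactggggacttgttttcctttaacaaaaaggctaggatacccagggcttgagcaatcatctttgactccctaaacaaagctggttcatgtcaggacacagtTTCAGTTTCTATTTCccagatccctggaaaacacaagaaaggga
Gbp5 (chr3:142496764-142496933): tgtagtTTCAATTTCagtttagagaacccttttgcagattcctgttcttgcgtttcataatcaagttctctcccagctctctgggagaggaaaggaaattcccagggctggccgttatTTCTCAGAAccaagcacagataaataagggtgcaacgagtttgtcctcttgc
Gbp7 (chr3:142530166-142530335): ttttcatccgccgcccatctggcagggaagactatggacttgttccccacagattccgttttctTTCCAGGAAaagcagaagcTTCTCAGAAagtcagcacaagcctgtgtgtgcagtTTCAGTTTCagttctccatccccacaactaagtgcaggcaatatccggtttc

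Within the full RefSeq windows of 300 bases (250 before and 50 after the start, both strands searched), each of the 4 members with a window had the interferon response element core. It began 58 bases before the start of Gbp2, 52 before Gbp7 and 164 before Gbp5. Gbp3 held 2 overlapping matches, 44 and 38 bases before the first of its 2 annotated starts, and none in the window of the second. The STAT site was found at 245 and 52 bases before the start of Gbp5 and at 106 and 87 before that of Gbp7, and no match to its letters was found for Gbp2 or Gbp3. Over 32851 windows of this length, 8.56% held the first motif and 8.30% the second. These matches are a description of letters, and binding was not measured. No window was available for Gbp4, Gbp6, Gbp8 and Gbp9, so their upstream sequences were not searched.

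**Figure D1:**
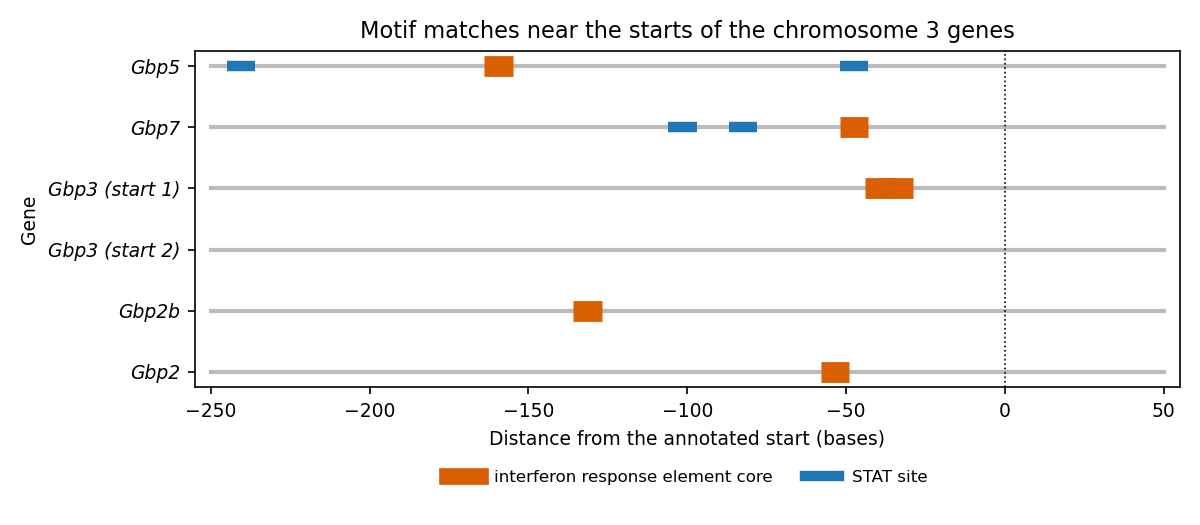
Matches to the interferon response element core (orange) and the STAT site (blue) in each RefSeq promoter window of the chromosome 3 genes, by distance in bases from the annotated start (dotted line). The first motif lies 164 to 38 bases upstream of a start in each gene shown and is absent only from the window of the second Gbp3 start.

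Library totals ranged from 34577188 to 37951827 counts. Untreated replicate 2 and IL-4 replicate 1 deviated together from their group means (r = 0.900 across 9553 genes, which are not independent replicates), so values without both are given where they matter. All 8 macrophage markers were detected, with a summed level of 24010 to 29160 CPM (counts scaled to a common library size) in untreated, 15440 to 17280 in IL-4 and 23920 to 26010 in IL-27 libraries. Of 8 T and NK cell markers, 4 were in the table, with 3 counts of Cd3e and 1 of Cd8a in all 9 libraries. Their summed level, almost all Cd4, was 8.82 to 11.55 CPM in untreated, 3.71 to 5.46 in IL-4 and 12.46 to 12.9 in IL-27 libraries. Ifng and Ifnb1, which encode interferons, were looked up and were not in the count table, so no level or test is given for them. The summed level of 5 fibroblast markers moved with IL-27, at 672 to 803 CPM in untreated, 536 to 682 in IL-4 and 1030 to 1290 CPM in IL-27 libraries. So did the sums of 3 endothelial markers (7.66 to 9.28, 10.33 to 11.33 and 22.4 to 27.8 CPM) and of 5 neutrophil markers (4.23 to 5.58, 2.44 to 4.12 and 8.11 to 9.39 CPM). The 4 B cell markers summed to 2.82 to 3.56, 1.40 to 2.24 and 0.944 to 1.23 CPM. The 4 dendritic cell markers were at 0.332 to 0.690, 0.948 to 1.40 and 0.510 to 0.970 CPM, and 2 mast cell and basophil markers at no more than 0.359 CPM in any library. Most counts of the macrophage sum came from Lyz2, of the fibroblast sum from Col1a1 and Col1a2, and of the neutrophil sum from S100a8. Kdr led the endothelial sum, Cd79b the B cell sum and Zbtb46 the dendritic cell sum. These sums therefore follow their leading genes and do not show whether the other markers moved. The part of these cell types in the results below was not tested. In bulk RNA, more expressing cells and more RNA per cell cannot be told apart.

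With IL-27 every member rose. All 8 were called higher than in untreated cells (edgeR quasi-likelihood test, Benjamini-Hochberg adjusted p under 0.05), where 14.0% of all genes tested were called higher. Gbp4 and Gbp6 passed the filter on low counts only through their IL-27 libraries, the group in which they were high. Their calls are therefore not independent of that filter. With no filter on low counts all 8 were called higher as well. The median log2 fold change of the 8 was 4.62, against 0.0014 over all genes tested. In each of the 8, all IL-27 libraries stood above all untreated ones, as they did in 26.2% of genes. Ranked by fold change among 12587 genes, Gbp4 was 9th, Gbp6 10th, Gbp2 13th, Gbp5 17th, Gbp3 22nd, Gbp7 44th, Gbp8 128th and Gbp9 538th.

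Gbp2, a prenylated member that loads onto parasite vacuoles, was the most abundant. Its FPKM (counts scaled by gene length and library size, as deposited) was 3.79, 3.44 and 4.26 in untreated, 2.83, 3.63 and 3.25 in IL-4 and 196.1, 234.0 and 217.2 in IL-27 libraries. The IL-27 libraries lay far above the rest, and the untreated and IL-4 groups overlapped. The rise over untreated was 57.1-fold (log2 5.84 ± 0.12 standard error, edgeR adjusted p = 6.51e-09). Without the 2 deviating libraries it was 56.3-fold.

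Gbp3 and Gbp5 are needed, with other members, for full inflammasome responses to some intracellular bacteria. Gbp3 stood at 1.99, 1.36 and 2.01 FPKM in untreated, 1.25, 1.18 and 0.948 in IL-4 and 34.7, 41.3 and 39.1 in IL-27 libraries. It was 21.9-fold higher with IL-27 than without (log2 4.45 ± 0.17, edgeR adjusted p = 2.81e-07). Gbp5, another prenylated member, was at 0.689, 0.421 and 0.609 FPKM in untreated, 0.222, 0.227 and 0.296 in IL-4 and 13.8, 18.5 and 14.2 in IL-27 libraries. Its rise was 27.6-fold (log2 4.79 ± 0.19, edgeR adjusted p = 2.93e-07). For both genes the 3 groups did not overlap, with IL-4 lowest and IL-27 highest.

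Gbp7, which has been tied to oxidase assembly and autophagy, had FPKM of 1.56, 0.993 and 1.43 in untreated, 0.692, 1.14 and 1.28 in IL-4 and 12.95, 14.3 and 13.9 in IL-27 libraries. Untreated and IL-4 libraries overlapped, and IL-27 libraries were well above both. The rise with IL-27 was 10.6-fold (log2 3.40 ± 0.19, edgeR adjusted p = 2.03e-06), the smallest of the 4 chromosome 3 members.

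The chromosome 5 members spanned a wider range of folds. Gbp4, described in the mouse as an inhibitor of the interferon factor IRF7, was almost silent without IL-27. Its raw counts were 8, 7 and 1 in untreated, 2, 0 and 0 in IL-4 and 355, 331 and 412 in IL-27 libraries. The summed counts of 1098 with IL-27 and 16 in untreated libraries, scaled for depth, gave a ratio of 65.8 with an exact 95% counting interval of 40.4 to 115.6, which covers counting error only (edgeR adjusted p = 1.18e-05). Against IL-4, with 2 counts in all, the ratio was 569 and the interval 157 to 4703. Both of these counts were in IL-4 replicate 1, a deviating library, and without it the IL-4 group held 0 counts of Gbp4.

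Gbp6, which acts at parasite vacuoles, had 6, 9 and 2 counts in untreated, 2, 19 and 4 in IL-4 and 316, 453 and 370 in IL-27 libraries. IL-4 replicate 2 was higher than any untreated library, and the IL-27 libraries were apart from all others. The ratio of IL-27 to untreated counts was 64.3 with an interval of 40.0 to 110.7 (edgeR adjusted p = 3.98e-05). Without the 2 deviating libraries the fitted folds of Gbp4 and Gbp6 went from 64.3 and 62.8 to 77.7 and 90.4.

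Gbp8 and Gbp9 moved least. Gbp8 went from 0.366, 0.305 and 0.410 FPKM in untreated to 1.75, 1.54 and 1.90 with IL-27, a 4.87-fold rise (log2 2.28 ± 0.19, edgeR adjusted p = 1.87e-05). Its IL-4 libraries, at 0.122, 0.164 and 0.193 FPKM, were below all others. Gbp9 had 2.60, 1.79 and 1.90 FPKM in untreated, 0.980, 1.53 and 1.51 in IL-4 and 4.64, 5.09 and 4.65 in IL-27 libraries. Its rise was 2.32-fold (log2 1.22 ± 0.16, edgeR adjusted p = 0.000403), and its 3 groups did not overlap either. All 8 rises kept their call under each of the 18 alternatives tried.

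**Figure D2:**
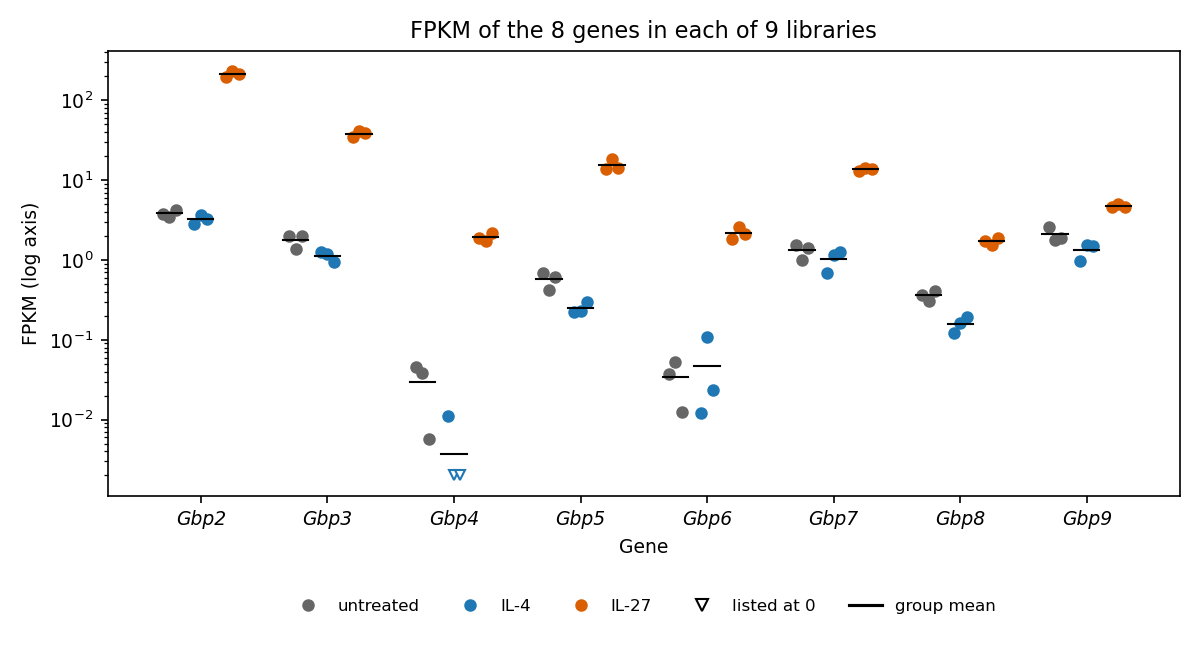
FPKM on a log axis for each gene in each library, with untreated (grey), IL-4 (blue) and IL-27 (orange) points, black bars for group means and open triangles for libraries listed at 0. The IL-27 points of every gene lie above all its other points, and Gbp4 and Gbp6 start from the lowest levels.

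Because FPKM is scaled for length, levels can be ordered between members, given the lengths behind the deposited values. These were 4348 bases for Gbp8, 4651 for Gbp6 and 3021 for Gbp5. The longest coding GENCODE transcripts have 2459, 2604 and 3055 bases. The order, and the shares of the summed FPKM below, depend on that choice of length. With IL-27 the order by mean was Gbp2 (216 ± 19.0 FPKM, SD, n = 3), Gbp3 (38.4 ± 3.37), Gbp5 (15.5 ± 2.58), Gbp7 (13.7 ± 0.716), Gbp9 (4.80 ± 0.254), Gbp6 (2.20 ± 0.394), Gbp4 (1.94 ± 0.226) and Gbp8 (1.73 ± 0.185). The libraries of Gbp5 and Gbp7 overlapped, as did those of Gbp6 and Gbp4 and of Gbp4 and Gbp8, and the other 4 of the 7 neighbouring pairs were apart. In untreated cells Gbp2 led at 3.83 ± 0.410 FPKM, followed by Gbp9 at 2.10 ± 0.440, Gbp3 at 1.79 ± 0.368, Gbp7 at 1.33 ± 0.297, Gbp5 at 0.573 ± 0.138 and Gbp8 at 0.360 ± 0.0526. Gbp6 and Gbp4 came last, at 0.0344 ± 0.0207 and 0.0298 ± 0.0213 FPKM. In untreated cells Gbp9 overlapped Gbp3, Gbp3 overlapped Gbp7 and Gbp6 overlapped Gbp4, and the other 4 neighbouring pairs were apart. IL-4 libraries kept the untreated order of means.

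The make-up of the family shifted with IL-27 towards Gbp2. Summed over the 8 members, FPKM was 11.1, 8.41 and 10.6 in untreated, 6.12, 7.98 and 7.49 in IL-4 and 268, 319 and 296 in IL-27 libraries. Gbp2 made up 34.2%, 40.96% and 40.0% of that sum in untreated, 46.2%, 45.5% and 43.3% in IL-4 and 73.3%, 73.3% and 73.5% in IL-27 libraries, with no overlap between groups. Gbp9 went the other way, from 23.5%, 21.3% and 17.9% in untreated to 1.73%, 1.59% and 1.57% with IL-27. The 4 chromosome 5 members together supplied 25.2% ± 2.92 (SD, n = 3) of the sum in untreated, 21.3% ± 2.57 in IL-4 and 3.64% ± 0.173 in IL-27 libraries. Exact two-sided permutation tests of these 3 shares between IL-27 and untreated cells each gave p = 0.1, the smallest that 3 against 3 libraries allow (0.129 adjusted over the 9 tests made). The summed FPKM of the 7 members other than Gbp2 was 6.21 ± 1.17 in untreated and 78.3 ± 6.77 in IL-27 libraries.

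**Figure D3:**
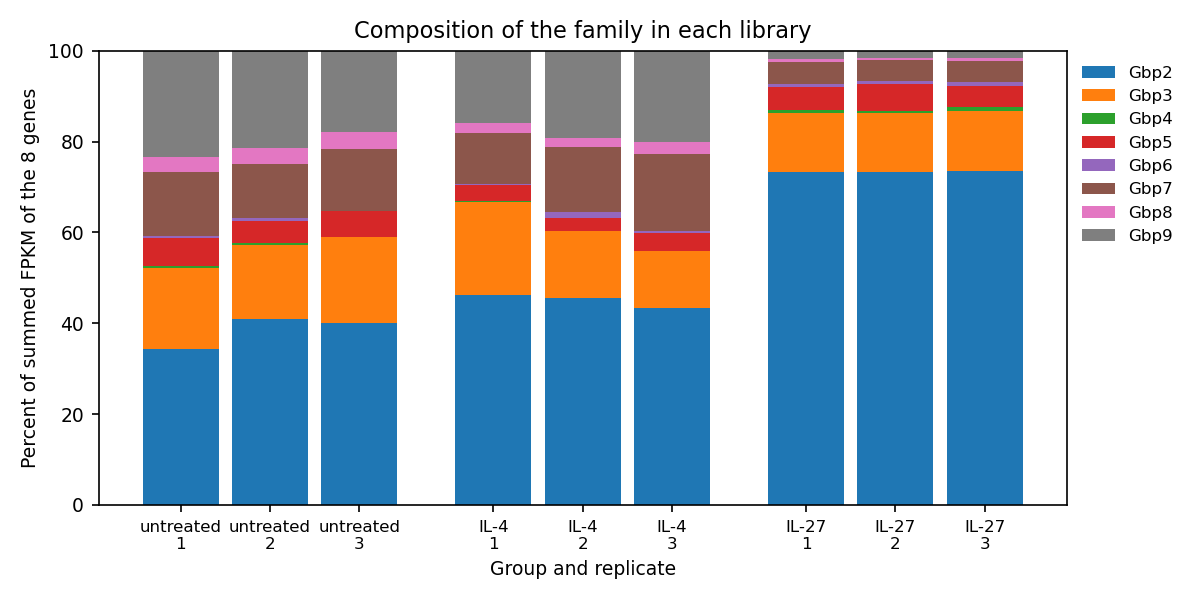
Stacked bars of the percent of the summed FPKM that each member supplies, for each of the 9 libraries. Gbp2 (blue, bottom) fills 73.3% to 73.5% of the IL-27 bars, and Gbp9 (grey, top) narrows from 17.9% or more in untreated to 1.73% or less in IL-27 libraries.

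IL-4 was tied to small falls in part of the family. Of the 8 members 4 were called lower than in untreated cells, 0 were called higher (edgeR, with 0 at an unadjusted p under 0.05 and 0 by DESeq2) and 4 did not pass, where 12.0% of all genes tested were called lower and 12.9% higher. In 5 members every IL-4 library lay below every untreated library, as in 18.2% of genes. The median log2 fold change was -0.69, against -0.0089 over all genes. Gbp5 fell 2.36-fold (log2 -1.24 ± 0.22, edgeR adjusted p = 0.00238) and Gbp8 2.31-fold (log2 -1.21 ± 0.21, edgeR adjusted p = 0.00237), and both kept the call under all 18 alternatives. Gbp3 fell 1.61-fold (edgeR adjusted p = 0.0127) and Gbp9 1.62-fold (edgeR adjusted p = 0.0126). With only the 2 groups compared in the fit, Gbp3 and Gbp9 lost the call (edgeR adjusted p = 0.0716 and 0.0533). Gbp9 also lost it without untreated replicate 1 (edgeR adjusted p = 0.0515).

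The other 4 members did not pass with IL-4. Gbp2 had a log2 fold change of -0.29 ± 0.11 (edgeR adjusted p = 0.0777) although its normalised CPM did not overlap between the groups, and Gbp7 one of -0.40 ± 0.19 (edgeR adjusted p = 0.151). Gbp7 was called lower without the 2 deviating libraries (edgeR adjusted p = 0.0143). For Gbp4 the ratio of IL-4 to untreated counts was 0.116 with a counting interval of 0.0129 to 0.492 (edgeR adjusted p = 0.0591). Gbp4 and Gbp6 passed the filter on low counts only through their IL-27 libraries and were not tested with the 2 groups alone. DESeq2 on all 9 libraries called Gbp4 lower (log2 -3.11, DESeq2 adjusted p = 0.0222), on 2 IL-4 counts in all. In edgeR it was called lower without untreated replicate 3 (edgeR adjusted p = 0.0174) and without IL-4 replicate 1 (edgeR adjusted p = 0.0215). The latter left 0 counts in the IL-4 group. Gbp4 was called under 4 of 17 alternatives, at these low counts, so no fall is read from these. Gbp6 had a ratio of 1.36 with an interval of 0.706 to 2.69 (edgeR adjusted p = 0.734), and without IL-4 replicate 2, which held 19 of its 25 IL-4 counts, its log2 fold change turned from 0.42 to -0.96. Without both deviating libraries 6 members were called lower, among them Gbp4 on 0 remaining IL-4 counts.

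The direct comparison of the 2 cytokines, in which dose and duration also differ, gave 8 members higher with IL-27, where 18.8% of all genes tested were called higher. No member overlapped between these groups, while 28.0% of genes had all IL-27 libraries above all IL-4 ones. The median log2 fold change was 5.35, against 0.0073 over all genes. Here too Gbp4 and Gbp6 were tested only because their IL-27 libraries passed the filter on low counts. Gbp2 was 69.7-fold higher with IL-27 (edgeR adjusted p = 3.84e-09), Gbp5 65.0-fold and Gbp3 35.3-fold (edgeR adjusted p = 5.58e-08 for both). Gbp7, Gbp8 and Gbp9 were 13.9-fold, 11.3-fold and 3.76-fold higher, and for Gbp6 the ratio of counts was 47.2 with an interval of 31.8 to 73.3 for counting error only. Without IL-4 replicate 2 the fitted log2 fold change of Gbp6 went from 5.56 to 6.93. This comparison shares its libraries with the others. A difference between the effects of IL-27 and IL-4 is the same contrast, since the untreated group cancels.

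**Figure D4:**
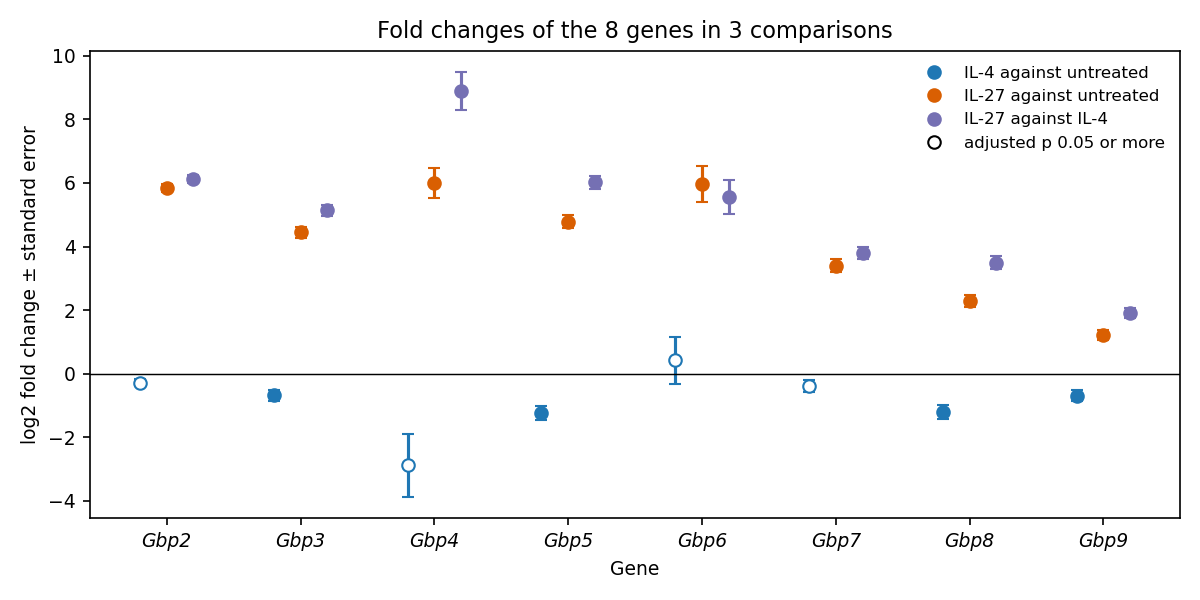
Log2 fold changes with standard errors for the 8 genes, for IL-4 against untreated (blue), IL-27 against untreated (orange) and IL-27 against IL-4 (purple), with open circles where the adjusted p was 0.05 or more. The orange and purple points are all above 0, from 1.22 for Gbp9 to 8.89 for Gbp4, and the 4 filled blue points lie between -1.24 and -0.69.

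The level left without IL-27 differed between members. Untreated cells held 1.53% of the IL-27 level of Gbp4 in CPM, 1.58% of that of Gbp6 and 1.75% of that of Gbp2. Gbp5 and Gbp3 stood at 3.61% and 4.56%, Gbp7 at 9.45%, Gbp8 at 20.5% and Gbp9 at 43.0%. Among 1525 genes called higher with IL-27 and at 5 CPM or more there, the 5 with the lowest untreated share were Iigp1, Tgtp2, Gbp4, Gbp6 and Gbp2, the lowest share was 0.544% and the median 62.9%. Those genes were chosen by the same contrast, and the untreated share is close to the inverse of the fold change. This order therefore restates the ranking by fold change and is no separate result. In IL-4 libraries Gbp4 stood at 0.195% of its IL-27 level, Gbp2 at 1.43%, Gbp5 at 1.53% and Gbp6 at 2.03%. The value of Gbp4 rests on the 2 counts of IL-4 replicate 1, and that of Gbp6 was 0.771% without IL-4 replicate 2, below Gbp2 and Gbp5.

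Near-identical copies make some of these counts uncertain, and how reads that match several genes were counted is not stated in any label or header. Of the windows of 50 bases in the longest coding GENCODE transcript of Gbp6, 70.2% occurred unchanged in another Gbp gene, and 62.3% in Gbp10. For Gbp8 the share was 21.2%, for Gbp4 12.8%, for Gbp9 9.56%, for Gbp3 4.79%, for Gbp7 2.28% and for Gbp2 2.07%. No such window of Gbp5 was shared. Gbp10 and Gbp2b, the other family genes in the table, were under the filter on low counts. Gbp10 had 28 counts in IL-27 replicate 2, 2 in untreated replicate 2, 1 in IL-4 replicate 2 and 0 in the other 6 libraries. Gbp2b had 5 counts in IL-27 replicate 3 and 0 elsewhere.

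Genes beside the clusters had smaller log2 fold changes with IL-27 than the 7 members other than Gbp9. On the chromosome 3 side, the tested flanking genes Rap1gds1, Unc5c, Pdlim5, Kyat3, Gtf2b and Pkn2 had log2 fold changes with IL-27 from -0.99 (Unc5c) to 0.43 (Pkn2). Gtf2b was the only one of these 6 called higher (log2 0.26, edgeR adjusted p = 0.044), and Rap1gds1 the only one called lower (log2 -0.26, edgeR adjusted p = 0.0265). Beside the chromosome 5 cluster Thoc2l, Zfp951, Lrrc8b, Lrrc8c and Lrrc8d were called higher, with log2 fold changes from 0.61 to 1.09, and Abcg3 was lower (log2 -1.998, edgeR adjusted p = 0.00229), where 14.0% of all genes tested were called higher and 15.1% lower. Each of these 12 genes was chosen by position alone.

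Across the 9 libraries each member followed the mean standardised profile of the other 7, with r from 0.952 (Gbp6) to 0.995 (Gbp5), a description of libraries that share their groups. For comparison 9394 other genes with a mean of 5 CPM or more were taken, leaving out unnamed gene models, clones and pseudogenes. Among these, the genes with the highest r to the mean profile of all 8 were Cry1 and Irgm1 (0.997 each), Optn (0.997), Zbtb18 and Zc3hav1 (0.996 each), Col5a3 (0.996), Tbc1d20 (0.996) and Rab3gap2 (0.995). Irgm1, a GTPase of the related IRG family, went from 41.8 ± 3.25 CPM in untreated and 27.1 ± 3.29 in IL-4 to 297 ± 12.5 in IL-27 libraries. The circadian repressor Cry1 stood at 20.9 ± 0.752, 16.3 ± 0.861 and 58.1 ± 2.44 CPM, and the antiviral zinc finger gene Zc3hav1 at 157 ± 7.82, 140 ± 10.0 and 364 ± 4.53 CPM. In all, 22 of the 9394 genes had r of at least 0.99. By the distance between profiles of group means, 0 of the 8 genes with the highest r were among the 8 nearest.

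Other genes of the pathway were read from lists, whose counts stand beside 14.0% of all genes tested called higher and 15.1% lower with IL-27, and 12.9% higher and 12.0% lower with IL-4. Of 15 tested IRG and giant GTPases 10 rose with IL-27 and 5 did not pass, with a median log2 fold change of 2.24, and with IL-4 4 fell and 11 did not pass. The smallest p-values with IL-27 belonged to Irgm1, Tgtp2, Iigp1 and Ifi47. Irgm1 rose 7.11-fold and Ifi47 10.8-fold (edgeR adjusted p = 2.81e-07 and 2.19e-06), while Tgtp2 went from 0.421 ± 0.303 to 36.1 ± 1.99 CPM and Iigp1 from 0.209 ± 0.197 to 38.4 ± 5.24 CPM. With IL-4 the falls were Irgm2 (2.22-fold), 9930111J21Rik1 (1.69-fold), Irgm1 (1.54-fold) and Gm5431 (1.92-fold). Tgtp1 and Tgtp2 are close copies, so their split is uncertain.

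Among STATs, IRFs and cofactors, 8 of 17 tested genes rose with IL-27, 2 fell and 7 did not pass, with a median log2 fold change of 0.065. Irf1, which binds the interferon response element, rose 5.00-fold, from 60.95 ± 12.1 to 304 ± 18.1 CPM (edgeR adjusted p = 3.92e-06). Nlrc5, which drives MHC class I genes, rose 3.80-fold. Irf5 fell 1.40-fold (edgeR adjusted p = 0.00127). With IL-4 1 of the 17 rose, 5 fell and 11 did not pass. Irf9, Irf8 and Stat5b fell 1.51-fold, 1.74-fold and 1.36-fold, and Irf2 was the 1 higher (1.20-fold). Irf1 did not pass with IL-4, at 60.95 ± 6.50 CPM. Stat3 fell 1.40-fold with IL-4 (edgeR adjusted p = 0.0221). It no longer passed when untreated replicate 3 or replicate 2 or 3 of IL-4 was left out, with only the 2 groups and with the replicate number as a block (edgeR adjusted p from 0.0549 to 0.0797).

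Of 13 receptors and kinases, 3 were higher with IL-27, 1 was lower and 9 did not pass. The interferon-gamma receptor chain Ifngr1 fell 2.28-fold, from 262 ± 3.17 to 115 ± 2.29 CPM (edgeR adjusted p = 2.45e-06), while the kinase Jak1 and the IL-4 receptor Il4ra rose 1.30-fold and 1.49-fold. Ifngr2 was 1.26-fold higher, a call lost under 6 alternatives, among them leaving out untreated replicate 2 or any 1 IL-27 library (edgeR adjusted p from 0.0577 to 0.0985). The IL-27 receptor genes Il27ra and Il6st did not pass with IL-27, and with IL-4 they rose 2.48-fold and 2.80-fold. The kinase Jak2 rose 2.58-fold with IL-4, and Il13ra1 and Il4ra fell 1.84-fold and 1.31-fold. Of 8 feedback inhibitors 2 rose with IL-27 and 3 fell, and with IL-4 3 rose and 1 fell. Socs1, which blocks JAK kinases, was at 2.36 ± 0.759 CPM in untreated, 33.4 ± 4.79 in IL-4 and 8.64 ± 0.519 in IL-27 libraries, and Socs3 rose 3.93-fold with IL-27. Cish, a STAT5 and STAT6 target, went from 0.856 CPM in untreated to 41.9 in IL-4 and 0.201 in IL-27 libraries. Socs2 rose 7.76-fold with IL-4, and the phosphatase Ptpn6 fell 1.58-fold with IL-27. Of the ligands 2 were tested, and Ebi3, a subunit of IL-27 itself, fell 1.70-fold with IL-27 and 1.80-fold with IL-4.

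Genes for the machinery that GBPs work with were read in 4 lists. Of 6 prenylation enzymes, which attach the lipid anchor, 0 were called with IL-27 (edgeR, with 0 at an unadjusted p under 0.05 and 0 by DESeq2). Fntb was the 1 enzyme higher with IL-4 (1.44-fold, edgeR adjusted p = 0.0173), a call lost without untreated replicate 1, untreated replicate 3 or IL-4 replicate 2 and with only the 2 groups (edgeR adjusted p from 0.0541 to 0.0613). In ATG8 conjugation, the ubiquitin-like system that directs GBPs to vacuoles, 2 of 13 rose with IL-27 and 11 did not pass, the receptor Sqstm1 rising 1.97-fold and Atg12 1.66-fold. With IL-4 Map1lc3a, Gabarapl1 and Map1lc3b fell 1.56-fold, 1.35-fold and 1.36-fold, and Map1lc3b did not pass once replicate 2 or 3 of IL-4 was removed, with only the 2 groups and with the replicate block (edgeR adjusted p from 0.0537 to 0.0824). Of 14 inflammasome and pyroptosis genes 2 rose with IL-27, 5 fell and 7 did not pass. Il1a and the sensor Naip2 rose 3.11-fold and 1.44-fold, Pycard and Nlrc4 fell 1.57-fold and 1.72-fold, and Il1b went from 2.49 ± 0.204 to 0.0091 ± 0.0158 CPM. With IL-4 Pycard rose 1.53-fold and 4 of the 14 fell. Nlrp3, Ninj1 and Nlrc4 fell 2.46-fold, 3.11-fold and 1.80-fold, and Il1b, at 0.143 ± 0.125 CPM with IL-4, fell 16.6-fold. Of 6 tested oxidase and nitric oxide synthase genes 2 fell with IL-4: the oxidase core Cybb fell 3.29-fold and Ncf1 1.71-fold.

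**Figure D5:**
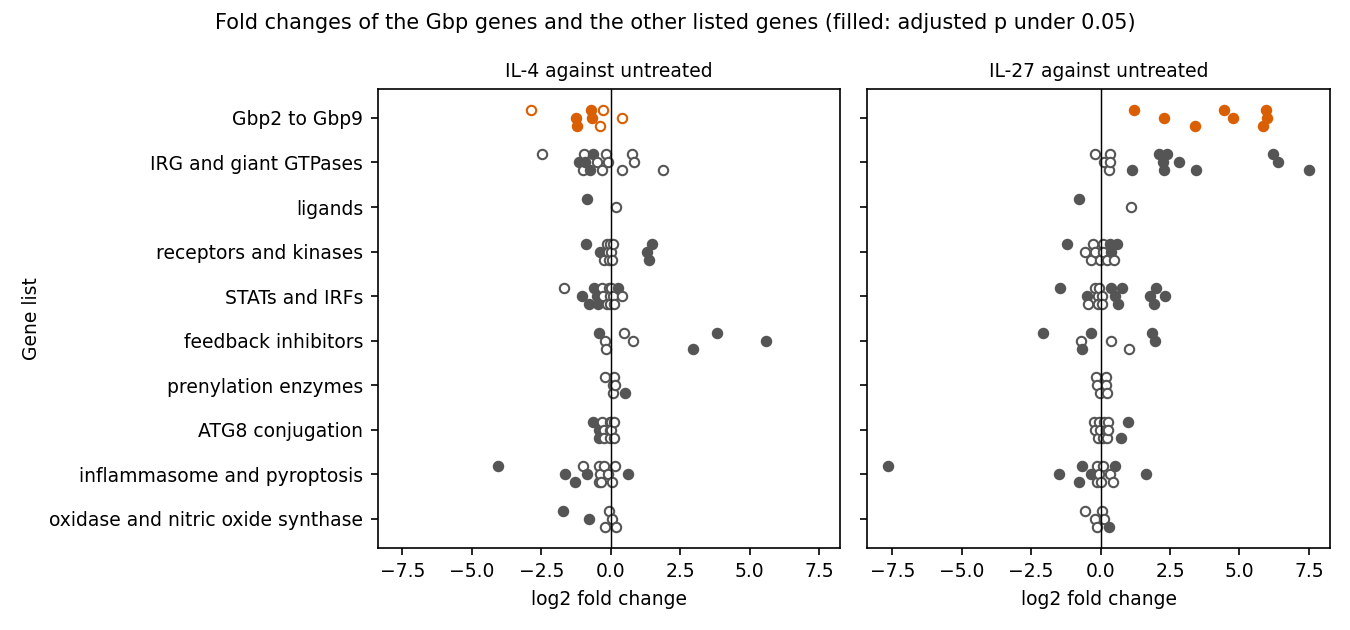
Log2 fold changes of the 8 Gbp genes (orange) and of the genes in each other list (grey), for IL-4 against untreated (left) and IL-27 against untreated (right), with filled points where the adjusted p was under 0.05. With IL-27 the Gbp genes run from 1.22 to 6.01 and only the IRG and giant GTPases reach as high, while the prenylation enzymes stay near 0.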

How the data were processed

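Per the labels' protocols, RNA came from TRIzol extracts and libraries from the VAHTS Universal V6 kit. The deposited counts hold 1 whole number for each gene in each library. The submitters' processing notes list fastp, HISAT2, HTSeq and the build GRCm39. Strand setting, annotation and program options were not stated there. The deposited FPKM values carry the same information after scaling for length and depth: dividing one by the other gave whole lengths (within 1e-06 bases) for 100% of genes, and FPKM was used only for levels.

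Counts of all 9 libraries were fitted in edgeR 4.0.16 (R 4.3.3) with a term for group, TMM factors (0.918 to 1.06) and filterByExpr (minimum count 10). Quasi-likelihood tests were adjusted by Benjamini-Hochberg over the 12587 genes tested, with a threshold of 0.05. The fit was tested on simulated data. DESeq2 1.42.0 was an alternative. Fold changes compare groups, and values after ± are SD unless given as standard error. Scaled levels of genes in CPM use the TMM factors, and the summed levels of cell type markers use total counts alone. Counting intervals are exact 95% binomial intervals.

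The members, lists and tests were chosen with earlier results of these data known. Named were all members, other Gbp genes in the table, Irf1, Il27ra, Il6st, Il4ra and Socs1, the 8 genes most like the members, and up to 4 genes per list with the smallest adjusted p among those called, and some of the genes this rule names are not reported here. Where a direction held few genes, Irf2 and Naip2 were named after their values were seen.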

Additional observations from a re-analysis of the deposited data

How the results depend on the processing

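All members were called higher with IL-27 in both contrasts under each of the 18 alternatives (other normalisations, filters, DESeq2, the replicate block, fewer groups or libraries). Against untreated cells, 4 members were called with IL-4 in the main fit, 5 by DESeq2 (among them Gbp4) and 3 to 5 when leaving out 1 library. The number was 6 without untreated replicate 2 and IL-4 replicate 1 (among them Gbp4, on 0 IL-4 counts). It was 2 with only the 2 groups compared, where 6 of the members were tested. Gbp6 with IL-4 was -0.96 on the log2 scale without IL-4 replicate 2 and spanned -0.96 to 0.95 when 1 library was left out. By distance between group means, 0 of the 8 most similar genes were shared. Without both deviating libraries, the genes called went from 3145 to 5909 with IL-4 and from 3670 to 6313 with IL-27, and pathway-list calls with IL-4 from 31 to 49. Of 71 calls named outside the family, 60 were kept under every alternative.

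Replicate numbers are shared between groups, but the deviations of same-numbered libraries correlated from -0.797 to 0.666 and exceeded 0.1 in 1 of 9 pairs. Deviations within a group sum to 0, and untreated replicate 2 and IL-4 replicate 1 deviated together. These correlations therefore cannot show whether same-numbered libraries share an animal or a preparation. With the replicate block 4 members were called with IL-4, 8 with IL-27 and 8 between the cytokines. Depth limits Gbp4 and Gbp6, which had at most 19 counts in any library without IL-27.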
